A study of Mus musculus with 4 samples.

Results

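Imprinted genes are read mainly from the copy inherited from the father or mainly from the copy inherited from the mother. The genes described here are 10 such genes among the 30907 features of the deposited count tables, matched by symbol. Of these, 7 are paternally expressed (Kcnq1ot1, Plagl1, Sgce, Impact, Zrsr1, Airn and Peg3) and 3 are maternally expressed (Igf2r, Cdkn1c and Slc22a18). They were chosen with their levels in these libraries known, in particular the contrast of donor-derived with endogenous cells in the mouse that received stem-cell-derived basal cells. The values of that contrast are therefore a description, and no test was made on them.

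In an imprinted domain, a control region carries DNA methylation on the copy from one parent, set in the germ line and kept through later cell divisions. Many paternally expressed genes start inside a control region that is methylated on the maternal copy. Kcnq1ot1 and Airn are long RNAs of this kind, and on the paternal chromosome each represses neighbouring protein-coding genes, Cdkn1c for Kcnq1ot1 and Igf2r for Airn, which are in turn read from the maternal copy. Imprinted genes often act on growth, and methylation at control regions is known to be lost at times in cultured embryonic stem cells. The counts used here do not separate the parental copies, so every level below is a sum over both.

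Single-cell RNA sequencing was done on the tracheas of 2 adult wild type mice whose epithelium had been injured with 2% polidocanol and which received 6000000 donor cells 5 hours later. One recipient was given primary basal cells (primary BCs) and was analysed on day 69, with the strain given as C57BL/6. The other was given basal cells derived from embryonic stem cells (iBCs) and was analysed on day 192, with the strain given as 129 X1/S1. GFP+ (donor-derived) and GFP- (endogenous) cells were sorted from each trachea within a Calcein Blue+ live gate. The 4 libraries are called here iBC-derived, iBC-recipient endogenous, primary-BC-derived and primary-recipient endogenous. Each group is 1 library from 1 animal, so no value has a replicate, and donor cell type, time, strain and animal cannot be told apart between the recipients. The endogenous epithelium was present at the injury and the donor cells were given 5 hours after it. Donor-derived and endogenous cells are therefore not matched for injury or for transplantation. The strain and genotype of the donor cells are not given in the sources used here. Whether donor-derived and endogenous cells of a trachea match in these is therefore not known.

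The libraries held 6784 cell barcodes and 21504563 to 26625123 UMIs each, and 6542 cells were kept. Cells were assigned to basal-, secretory- and ciliated-like classes by a gate on marker genes, none of which is imprinted. Basal-like cells numbered 772, 600, 730 and 1261 in the iBC-recipient endogenous, iBC-derived, primary-recipient endogenous and primary-BC-derived libraries. In the same order there were 490, 383, 225 and 172 secretory-like and 366, 270, 210 and 170 ciliated-like cells. UMIs were summed per library and class, giving 12 sums of 3183862 to 14929095 UMIs, and levels are CPM, the UMIs of a gene per 1000000 UMIs of the sum. All 10 basal markers had UMIs in all 4 basal-like sums, and all 12 ciliated markers in all 4 ciliated-like sums. The reporter EGFP stood at 65.4 CPM in the iBC-derived and 608 CPM in the primary-BC-derived library, and at 0.092 and 9.71 CPM in the endogenous library of the same trachea. At most 1 cell barcode was shared between any pair of libraries. All intervals are 95% intervals that cover counting error only, exact Poisson for levels, exact conditional binomial for ratios and exact Clopper-Pearson for shares of cells.

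The promoters of 4 members are shown as examples, not as a full list of members with parent-specific methylation. Each lies in a region known to carry such methylation. It is on the maternal copy at Kcnq1ot1, Plagl1 and Zrsr1 and on the paternal copy at Igf2r, where it is set after fertilisation. Each promoter runs from 250 bases before to 50 bases after the start given by RefSeq (GRCm38.p6), 5′ to 3′ on the strand of the gene. The capitals mark CG dinucleotides, the bases at which such methylation is placed.
Kcnq1ot1, chr7:143296498-143296797, minus strand: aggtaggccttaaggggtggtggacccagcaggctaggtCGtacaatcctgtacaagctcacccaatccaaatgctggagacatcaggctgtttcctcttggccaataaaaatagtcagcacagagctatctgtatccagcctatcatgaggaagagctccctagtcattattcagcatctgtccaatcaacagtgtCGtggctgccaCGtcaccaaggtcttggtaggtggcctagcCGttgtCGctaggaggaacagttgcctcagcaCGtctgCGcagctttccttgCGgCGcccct
Plagl1, chr10:13090582-13090881, plus strand: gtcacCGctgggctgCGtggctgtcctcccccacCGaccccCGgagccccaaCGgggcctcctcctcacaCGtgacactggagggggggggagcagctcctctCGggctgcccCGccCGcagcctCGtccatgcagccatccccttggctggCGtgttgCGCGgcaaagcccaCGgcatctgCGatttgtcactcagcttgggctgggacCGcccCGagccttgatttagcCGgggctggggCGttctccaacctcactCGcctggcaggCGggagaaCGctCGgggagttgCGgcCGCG
Zrsr1, chr11:22971755-22972054, plus strand: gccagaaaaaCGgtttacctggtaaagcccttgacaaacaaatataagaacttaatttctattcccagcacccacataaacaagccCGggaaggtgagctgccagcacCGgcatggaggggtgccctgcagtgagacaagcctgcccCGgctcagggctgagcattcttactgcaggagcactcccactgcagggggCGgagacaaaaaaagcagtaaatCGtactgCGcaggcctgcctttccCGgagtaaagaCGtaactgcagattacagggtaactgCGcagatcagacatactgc
Igf2r, chr17:12769657-12769956, minus strand: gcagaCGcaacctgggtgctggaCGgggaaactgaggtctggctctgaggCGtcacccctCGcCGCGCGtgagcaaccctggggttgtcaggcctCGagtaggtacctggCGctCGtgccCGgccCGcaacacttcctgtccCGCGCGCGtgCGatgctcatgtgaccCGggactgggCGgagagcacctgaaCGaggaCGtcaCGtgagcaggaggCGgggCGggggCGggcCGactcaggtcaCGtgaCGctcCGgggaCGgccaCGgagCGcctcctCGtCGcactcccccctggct
The window held 34 CG dinucleotides at Igf2r, 26 at Plagl1, 10 at Zrsr1 and 9 at Kcnq1ot1, against a median of 7 over the 32851 promoters of that table. Sequences were found for 7 of the 10 members; Sgce, Impact and Cdkn1c had none in the table, and Airn, Peg3 and Slc22a18 held 3, 13 and 2 CG dinucleotides. The letters TGCCGC, read on either strand, are the core bound by ZFP57, a zinc finger protein that keeps methylation at imprinted control regions. They occurred once among the 7 windows, at Plagl1, and in 11.6% of all promoters of that length. Methylation was not measured in this series.

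In the iBC recipient, on the contrast by which they were chosen, most paternally expressed members were higher in the iBC-derived library. Of the maternally expressed members, Igf2r and Cdkn1c were lower there and Slc22a18 did not follow. A gene was called when its CPM ratio between donor-derived and endogenous sums was at least 2-fold with an interval excluding 1, among genes with at least 20 UMIs over both sums. Among basal-like cells, 5 of 7 paternally expressed members were called higher in the iBC-derived library, where 6.64% of all genes were, and 2 of 3 maternally expressed members were called lower, where 6.14% of all genes were. Among secretory-like cells the counts were again 5 of 7 and 2 of 3, beside 11.3% and 5.9% of all genes. With TMM scaling, which lowers every log2 ratio of this class by 0.37, 3 paternally expressed members were called higher (Kcnq1ot1, Sgce and Airn) and 1 lower (Peg3), beside 5.88% and 8.07% of all genes. Among ciliated-like cells 4 of 6 paternally expressed members with enough UMIs were called higher and 2 of 3 maternally expressed members lower, beside 6.19% and 6.01% of all genes. With this call rule and no TMM scaling, no paternally expressed member was called lower and no maternally expressed member higher. The median log2 ratio, computed with 5 CPM added, was 1.12, 1.01 and 1.11 for the paternally expressed members in the 3 classes and -1.97, -2.18 and -3.00 for the maternally expressed ones, against 0.11, 0.26 and 0.07 over all genes tested. Since the members were chosen on this contrast, nothing further is read from these counts.

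**Figure D1:**
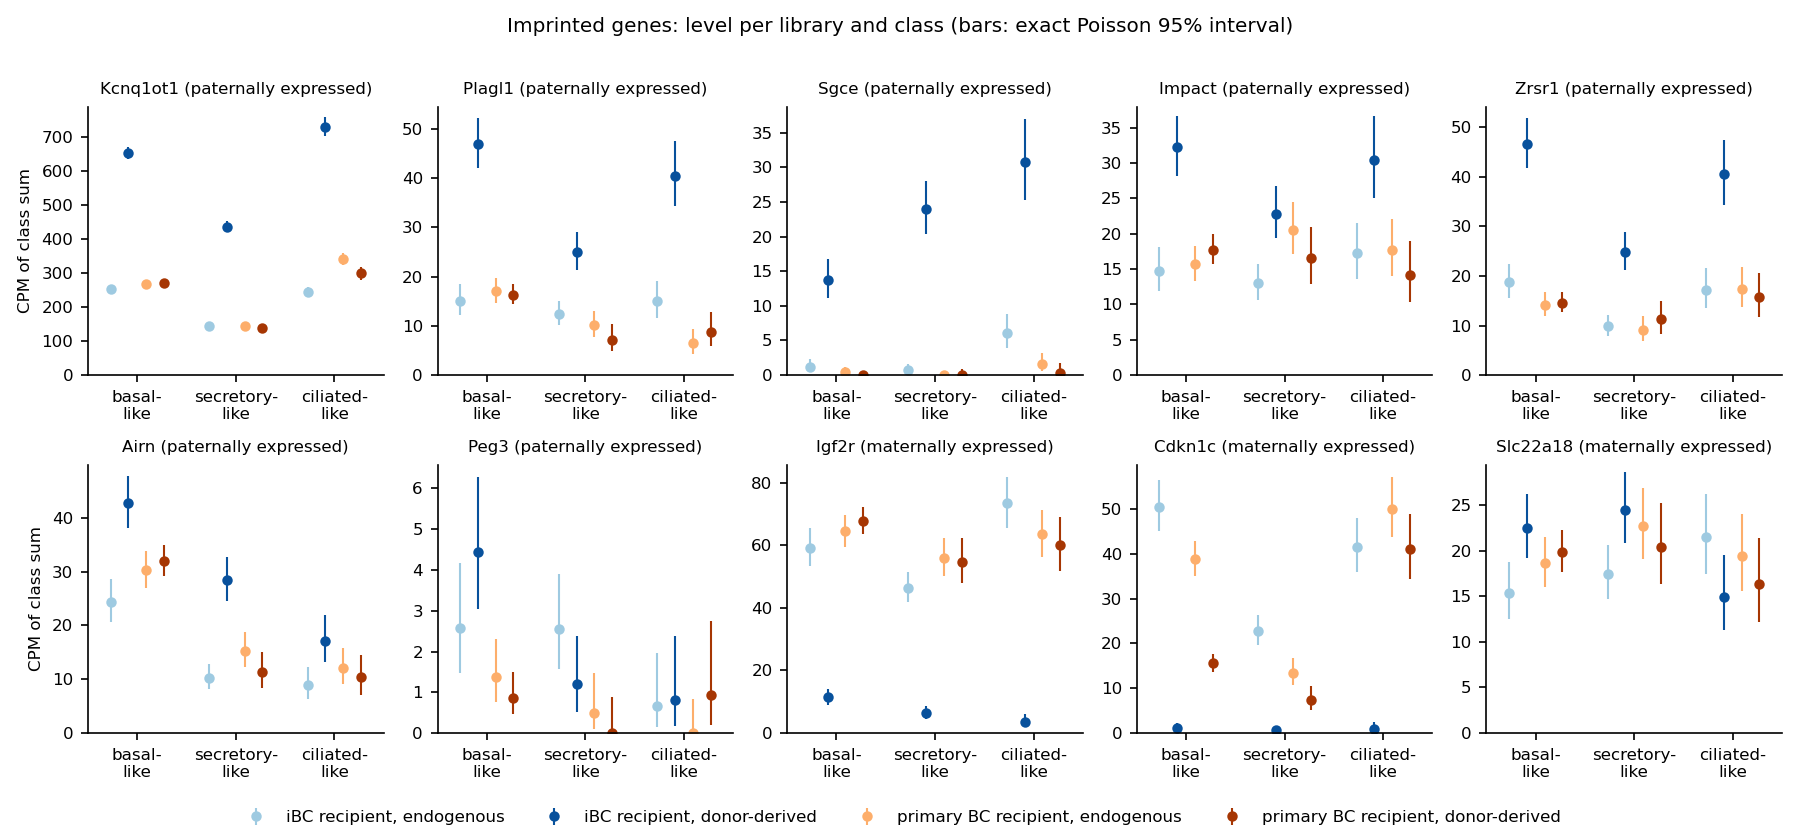
Level of each member in CPM of the class sum (vertical axis) for 3 cell classes (horizontal axis) and 4 libraries (colours), with exact Poisson 95% intervals as bars. The iBC-derived points of Kcnq1ot1, Plagl1, Sgce, Impact and Zrsr1 stand above the other 3 libraries in each class, those of Igf2r and Cdkn1c below them; those of Slc22a18 are highest in basal-like and secretory-like and lowest in ciliated-like cells, within 14.95 to 24.5 CPM.

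Kcnq1ot1 (ENSMUSG00000101609, chr7:143203458-143296549, minus strand, GRCm38) is annotated as a single exon of 93092 bases within the potassium channel gene Kcnq1, on the other strand. In basal-like cells Kcnq1ot1 stood at 653 CPM in the iBC-derived library (4702 UMIs) and at 253, 267 and 271 CPM in the iBC-recipient endogenous, primary-recipient endogenous and primary-BC-derived libraries. The iBC-derived value was thus apart from 3 values that lay close together, with a ratio to its own endogenous library of 2.58 (2.44 to 2.73). In secretory-like cells the same 4 libraries gave 436, 143, 143 and 140.0 CPM, a ratio of 3.04 (2.84 to 3.25). In ciliated-like cells they gave 729.9, 244, 341 and 299 CPM, a ratio of 2.99 (2.78 to 3.21). Ranked over the 12 sums, the 3 iBC-derived sums were highest, and the interval of the lowest of them, 420.2 to 452 CPM, lay above that of the next sum, primary-recipient endogenous ciliated-like cells at 324 to 359 CPM. Cells outside every gate gave the same picture, with 507 CPM in the iBC-derived library and 232, 137 and 137 CPM in the others.

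The excess of Kcnq1ot1 was spread over many cells. A UMI was seen in 94.5% of iBC-derived basal-like cells, and in 72.2%, 82.0% and 79.5% of those in the iBC-recipient endogenous, primary-recipient endogenous and primary-BC-derived libraries. Because cells differed in depth, each was also thinned to 5000 UMIs, which left out 103, 45, 3 and 13 shallower cells of the iBC-recipient endogenous, iBC-derived, primary-recipient endogenous and primary-BC-derived libraries. After thinning, the median was 3 UMIs per basal-like cell in the iBC-derived library and 1 in each other library. The share of basal-like cells without a UMI was 14.2% in the iBC-derived library and 38.2% to 39.2% in the other 3. In ciliated-like cells that share was 10.9% against 32.4% to 38.5%, and in secretory-like cells 26.1% against 60.4% to 63.4%. Cells with 3 or more UMIs made up 52.1% of basal-like, 34.0% of secretory-like and 53.8% of ciliated-like iBC-derived cells. Kcnq1ot1 varied more between cells than counting alone gives in every library. In the iBC-derived basal-like cells a Poisson draw with the same mean would leave 4.36% without a UMI.

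**Figure D2:**
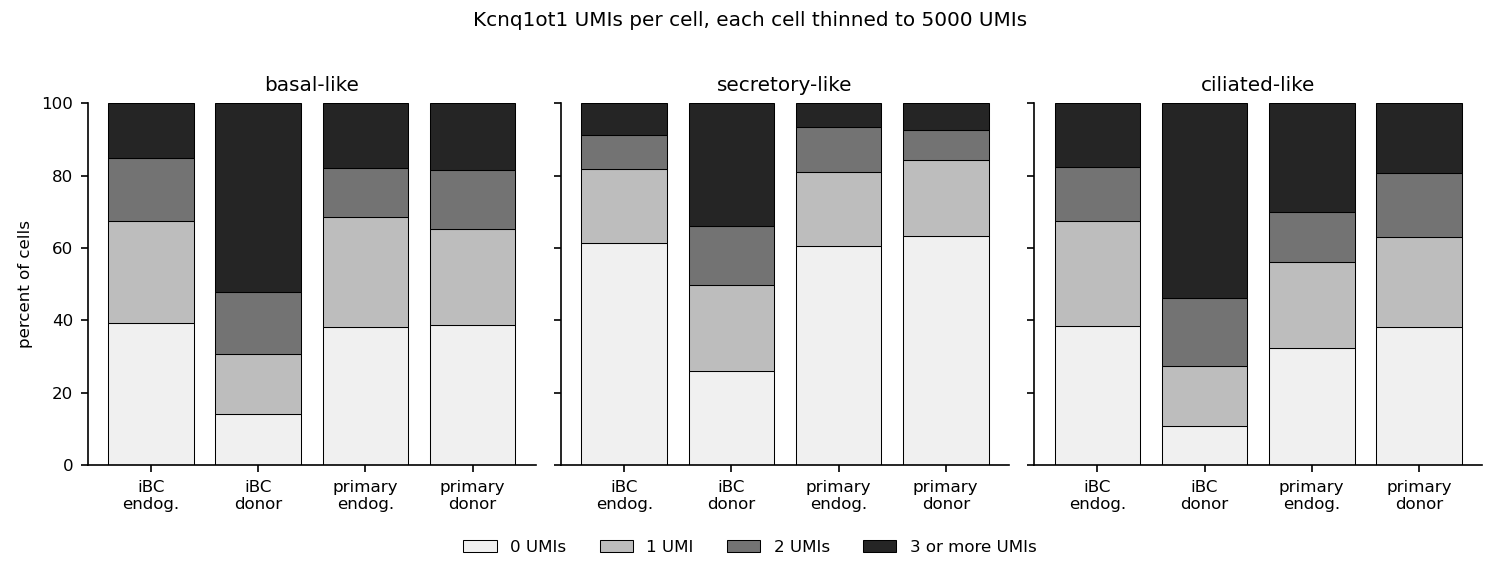
Percent of cells (vertical axis) with 0, 1, 2 or 3 and more Kcnq1ot1 UMIs after each cell was thinned to 5000 UMIs, for the 4 libraries in each class. The iBC-derived bars hold 10.9% to 26.1% of cells without a UMI, against 32.4% to 63.4% in the other libraries.

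Plagl1 (ENSMUSG00000019817, chr10:13060504-13131694, plus strand) encodes a zinc finger transcription factor that restrains the cell cycle. Its basal-like level was 46.8 CPM in the iBC-derived library and 15.1, 17.03 and 16.3 CPM in the iBC-recipient endogenous, primary-recipient endogenous and primary-BC-derived libraries, a ratio of 3.11 (2.46 to 3.95) within the iBC recipient. Its ciliated-like levels were 40.5, 14.99, 6.48 and 8.79 CPM in the same order, a ratio of 2.70 (2.01 to 3.66). The endogenous ciliated-like cells differed here as well, since the iBC recipient stood 2.31-fold (1.48 to 3.71) above the primary recipient. In secretory-like cells the 4 values were 24.9, 12.4, 10.2 and 7.19 CPM, and the ratio of 2.02 (1.56 to 2.61) was just past the 2-fold limit; with TMM scaling it was 1.56 (1.21 to 2.02) and not called. In the clusters described below, Plagl1 was also high in Krt13-rich cells of other libraries. It stood at 40.6 and 48.6 CPM in primary-BC-derived and primary-recipient endogenous cells of cluster 13, and at 54.1 CPM in iBC-derived cluster 12. In basal-like clusters it was at 39.3 CPM in iBC-derived cluster 3 and at 14.2 to 20.3 CPM in clusters 0, 5 and 8 of the other libraries. The part of Krt13-rich cells in the class ratios was not tested.

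Zrsr1 (ENSMUSG00000044068, chr11:22972005-22976496, plus strand) is a copy of a splicing factor gene that lies in a single exon within Commd1, on the opposite strand. In basal-like cells it measured 46.6 CPM in the iBC-derived library and 18.8, 14.2 and 14.6 CPM in the iBC-recipient endogenous, primary-recipient endogenous and primary-BC-derived ones. The secretory-like values were 24.8, 9.82, 9.20 and 11.3 CPM, and the ciliated-like values 40.5, 17.2, 17.4 and 15.7 CPM. In every class the iBC-derived value lay apart and the others lay together. The ratios within the iBC recipient were 2.49 (2.01 to 3.10), 2.52 (1.92 to 3.33) and 2.35 (1.77 to 3.14) in basal-, secretory- and ciliated-like cells. The ratio in secretory-like cells was 1.96 (1.49 to 2.59) with TMM scaling, just short of a call.

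Sgce (ENSMUSG00000004631, chr6:4674350-4747207, minus strand) encodes epsilon-sarcoglycan, a membrane protein of the dystrophin-associated complex, and was close to silent outside the iBC-derived library. In basal-like cells the iBC-derived library held 99 UMIs (13.7 CPM), and the iBC-recipient endogenous, primary-recipient endogenous and primary-BC-derived libraries held 7, 5 and 0 UMIs. In secretory-like cells the counts were 159 UMIs (24.0 CPM) against 6, 0 and 0. In ciliated-like cells they were 113 UMIs (30.7 CPM) against 27, 7 and 1. The ratios within the iBC recipient were 12.3 (5.73 to 31.3), 33.0 (14.8 to 91.3) and 5.08 (3.32 to 8.05), the highest of the 10 members in each class. A UMI was found in 13.7%, 26.1% and 32.2% of iBC-derived basal-, secretory- and ciliated-like cells. In the primary-BC-derived library the count of 0 in secretory-like cells allows a level of up to 0.719 CPM, taking 3 counts as the limit.

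Impact, Airn and Peg3 showed smaller ratios. Impact (ENSMUSG00000024423) encodes a protein that inhibits the amino acid sensor kinase GCN2. Its basal-like levels were 32.2 CPM in the iBC-derived library and 14.8, 15.7 and 17.8 CPM in the iBC-recipient endogenous, primary-recipient endogenous and primary-BC-derived libraries, a ratio of 2.18 (1.71 to 2.81). In secretory-like cells the 4 values were 22.8, 12.97, 20.6 and 16.5 CPM, so the iBC-derived and primary-recipient endogenous intervals overlapped, and the ratio of 1.76 (1.36 to 2.27) was not called. In ciliated-like cells the ratio of 1.77 (1.31 to 2.39) was not called either.

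Airn (ENSMUSG00000078247, chr17:12741311-12860136, plus strand) starts inside Igf2r, 28.4 kb from the Igf2r start, and runs across that start on the opposite strand. It measured 28.4 CPM in iBC-derived secretory-like cells and 10.3, 15.2 and 11.3 CPM in those of the iBC-recipient endogenous, primary-recipient endogenous and primary-BC-derived libraries, a called ratio of 2.76 (2.12 to 3.604). In basal-like cells the same order gave 42.8, 24.4, 30.2 and 31.9 CPM, a ratio of 1.75 (1.44 to 2.15). In ciliated-like cells it gave 17.1, 8.95, 12.1 and 10.4 CPM, a ratio of 1.91 (1.27 to 2.92). The iBC-derived sum was the highest in each class, and the ratios in basal-like and ciliated-like cells were under the limit for a call. Peg3 (ENSMUSG00000002265, chr7:6703892-6730431, minus strand), a large zinc finger protein, was too scarce to place. It had 32 UMIs in iBC-derived and 16 in iBC-recipient endogenous basal-like cells, a ratio of 1.73 (0.92 to 3.38), and 8 against 21 in secretory-like cells, a ratio of 0.47 (0.18 to 1.11). With TMM scaling the latter was 0.37 (0.14 to 0.87) and called lower.

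Over the 7 paternally expressed members and 3 classes, 20 of 21 ratios within the iBC recipient were above 1, and 18 had intervals above 1; the 3 others were those of Peg3. Of the 20 ratios with enough UMIs, the interval held 2 in 9 and lay wholly above 2 in 10. The value just inside the limit for a call was Plagl1 in secretory-like cells and the value just outside was Airn in ciliated-like cells.

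Igf2r (ENSMUSG00000023830, chr17:12682406-12769664, minus strand) encodes the cation-independent mannose 6-phosphate receptor, which sorts lysosomal enzymes and clears the growth factor IGF2. Its basal-like level was 11.4 CPM in the iBC-derived library (82 UMIs) and 59.1, 64.4 and 67.8 CPM in the iBC-recipient endogenous, primary-recipient endogenous and primary-BC-derived libraries. That is 5.20-fold (4.08 to 6.68) below the endogenous cells of the same trachea. Secretory-like cells gave 6.34, 46.4, 56.0 and 54.7 CPM in that order, 7.32-fold (5.31 to 10.3) lower. Ciliated-like cells gave 3.53, 73.4, 63.5 and 59.99 CPM, 20.8-fold (11.98 to 39.4) lower. The 9 sums outside the iBC-derived library lay within 46.4 to 73.4 CPM, and the 3 iBC-derived sums at or below 11.4 CPM. A UMI was seen in 3.70% of iBC-derived ciliated-like cells, against 57.4%, 67.6% and 61.2% in the other 3 libraries.

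Cdkn1c (ENSMUSG00000037664, chr7:143458339-143461050, minus strand) encodes p57, an inhibitor of cyclin-dependent kinases that holds cells out of the cycle. The iBC-derived library held 8, 4 and 3 UMIs in basal-, secretory- and ciliated-like cells, which are 1.11, 0.604 and 0.815 CPM. The iBC-recipient endogenous library held 315, 188 and 186 UMIs, which are 50.5, 22.8 and 41.6 CPM. The levels were 45.5-fold (22.8 to 106), 37.7-fold (14.5 to 139.9) and 51.0-fold (17.2 to 249.7) lower in the iBC-derived cells. Primary-recipient endogenous cells had 38.9, 13.4 and 50.1 CPM and primary-BC-derived cells 15.5, 7.43 and 41.1 CPM, so every other sum was above the iBC-derived ones. Over the whole iBC-derived library 0.952% of cells carried a Cdkn1c UMI, against 17.8% to 32.0% in the other libraries. That whole library held 20 Cdkn1c UMIs. In the clusters of all cells described below, its cells had 6 of them in cluster 6 and 0 in clusters 3, 11, 12 and 15. Clusters 3, 6, 11, 12 and 15 held 541, 487, 262, 162 and 90 of the 1576 iBC-derived cells kept. The other Cdkn1c UMIs lay in iBC-derived cells outside these clusters. Whether those few UMIs are free RNA or RNA of a few cells was not tested.

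Slc22a18 (ENSMUSG00000000154, chr7:143473736-143499334, plus strand) is a transporter gene of the same domain, starting 12.7 kb from Cdkn1c, and did not share its pattern. Its basal-like levels were 22.5 CPM in the iBC-derived library and 15.4, 18.6 and 19.8 CPM in the iBC-recipient endogenous, primary-recipient endogenous and primary-BC-derived libraries. The ratio within the iBC recipient was 1.46 (1.13 to 1.90) in basal-like, 1.40 (1.11 to 1.77) in secretory-like and 0.70 (0.49 to 0.98) in ciliated-like cells, none of them called. The 12 levels stayed between 14.95 and 24.5 CPM. The iBC-derived level was the highest of the 4 libraries in basal-like and secretory-like cells and the lowest in ciliated-like cells.

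**Figure D3:**
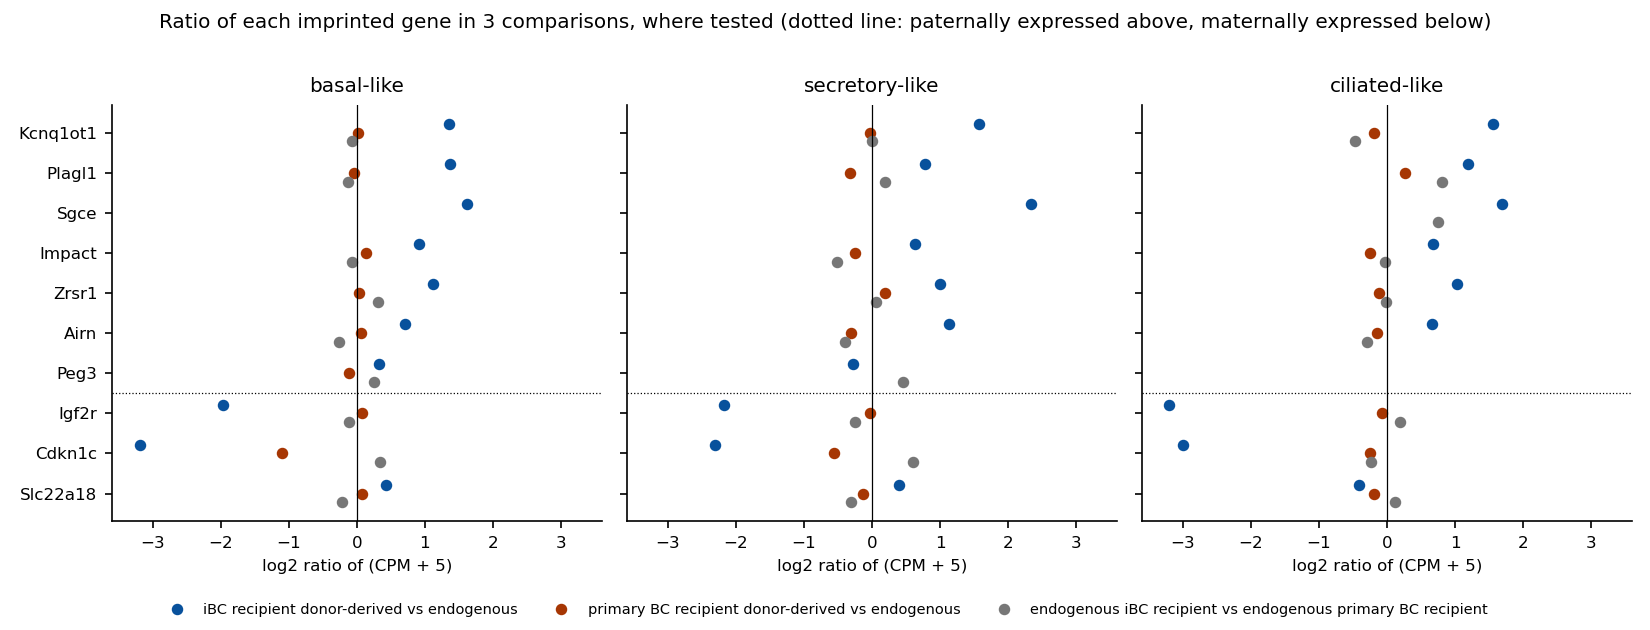
Log2 ratio of CPM with 5 CPM added (horizontal axis) for each member (vertical axis) in 3 classes, for donor-derived over endogenous cells in the iBC recipient (blue) and the primary BC recipient (brown), and for endogenous cells of the iBC recipient over those of the primary BC recipient (grey), where the gene had at least 20 UMIs. The blue points of 6 paternally expressed members lie right of 0 and those of Igf2r and Cdkn1c lie between -3.20 and -1.97; the brown point farthest from 0 is Cdkn1c in basal-like cells at -1.09.

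The ratio of UMIs between a member and a gene near it, taken inside 1 sum, does not depend on the scaling between libraries. The members were chosen on their levels in the iBC-derived library. Ratios that set those libraries apart follow in part from that choice and are descriptions. Airn had 3.76, 4.48 and 4.85 UMIs per Igf2r UMI in iBC-derived basal-, secretory- and ciliated-like cells, and 0.12 to 0.47 in the 9 other sums. Kcnq1ot1 had 588, 722 and 895 UMIs per Cdkn1c UMI in the iBC-derived sums, the last on 3 Cdkn1c UMIs with an interval of 306 to 4344, and 5.01 to 18.8 in the others. Per Slc22a18 UMI, Kcnq1ot1 had 29.0, 17.8 and 48.8 UMIs in the iBC-derived sums and 6.29 to 18.3 in the others, so these ranges overlapped. Zrsr1 had 1.09, 1.19 and 1.43 UMIs per UMI of its host Commd1, against 0.14 to 0.37. The sources used here do not say whether the strand entered the counting, so UMIs in overlapping stretches of Airn and Igf2r, of Zrsr1 and Commd1, and of Kcnq1ot1 and Kcnq1 cannot be told apart.

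Across the distal chromosome 7 domain, the neighbours of Kcnq1ot1 did not move as a block. Whether each of these neighbours is imprinted in tracheal cells was not tested. Cdkn1c starts 164.5 kb from the Kcnq1ot1 start. Beyond it, Phlda2 at 206.6 kb, a small growth-restraining protein of the placenta, was at 11.5 CPM in iBC-derived and 11.1 CPM in iBC-recipient endogenous basal-like cells, a ratio of 1.04 (0.75 to 1.46). Nap1l4 at 252.6 kb, a histone chaperone, had ratios of 1.12, 1.29 and 0.88 in basal-, secretory- and ciliated-like cells, and Osbpl5 at 460.4 kb, a lipid transfer protein, 1.12, 1.38 and 1.22. On the other side, Kcnq1, which contains Kcnq1ot1, was called lower in ciliated-like cells, at 6.25 against 15.4 CPM (ratio 0.40, 0.24 to 0.66), and stood at 29.2 against 28.7 CPM in secretory-like cells. Cd81, a tetraspanin gene at -243.8 kb, was called higher in secretory-like (ratio 4.79, 4.19 to 5.49) and ciliated-like cells (7.81, 5.58 to 11.2). Cd81 was also called higher in the primary-BC-derived library in those classes, with ratios of 2.67 (2.10 to 3.43) and 2.28 (1.44 to 3.67).

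**Figure D4:**
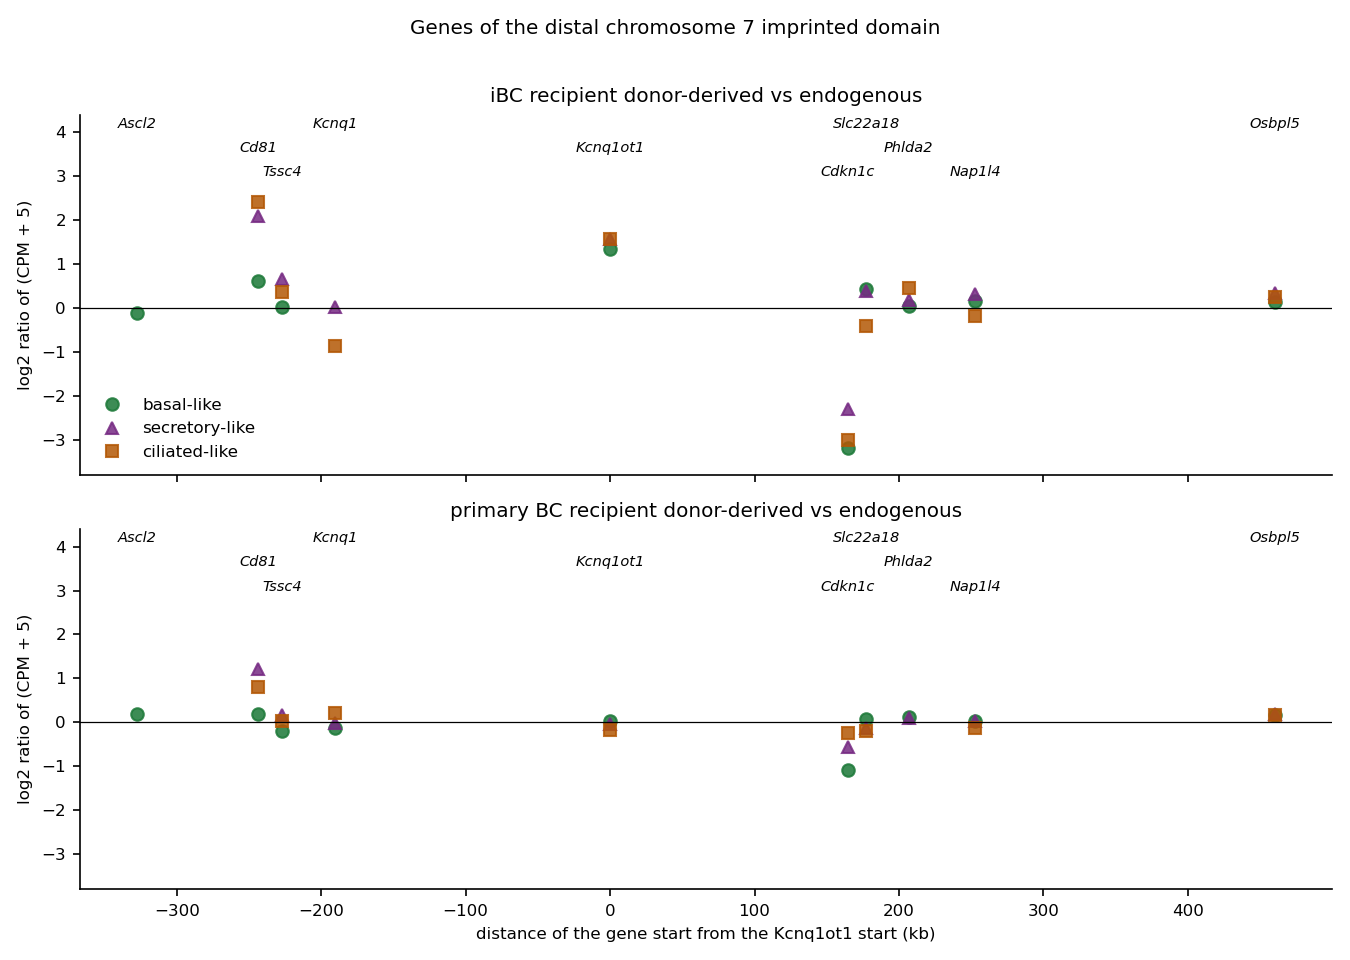
Log2 ratio of donor-derived over endogenous CPM with 5 CPM added (vertical axis) against the distance of each gene start from the Kcnq1ot1 start in kb (horizontal axis), for genes with at least 20 UMIs, in the iBC recipient (top) and the primary BC recipient (bottom); symbols mark the 3 classes. In the iBC recipient Cdkn1c lies between -3.18 and -2.31 and Kcnq1ot1 between 1.35 and 1.57, while Slc22a18, Phlda2, Nap1l4 and Osbpl5 lie between -0.41 and 0.45.

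The same members were looked at in clusters made from all cells, most of which held cells of 1 recipient or 1 library. In the 5 clusters with at least 50 iBC-derived cells, Kcnq1ot1 ranged from 373 to 752 CPM, against 121 to 303 CPM in the 17 cluster sums of the other libraries. Zrsr1 ranged from 24.7 to 59.1 CPM against 6.54 to 23.0 CPM, Igf2r from 2.31 to 12.2 CPM against 33.4 to 92.5 CPM, and Cdkn1c from 0 to 0.737 CPM against 4.76 to 64.3 CPM. These 4 members did not overlap between the libraries, while the other 6 did; of all genes with at least 20 UMIs over these sums, 1.31% did not overlap. Expression of the members was part of the cells clustered, so these ranges are a description.

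**Figure D5:**
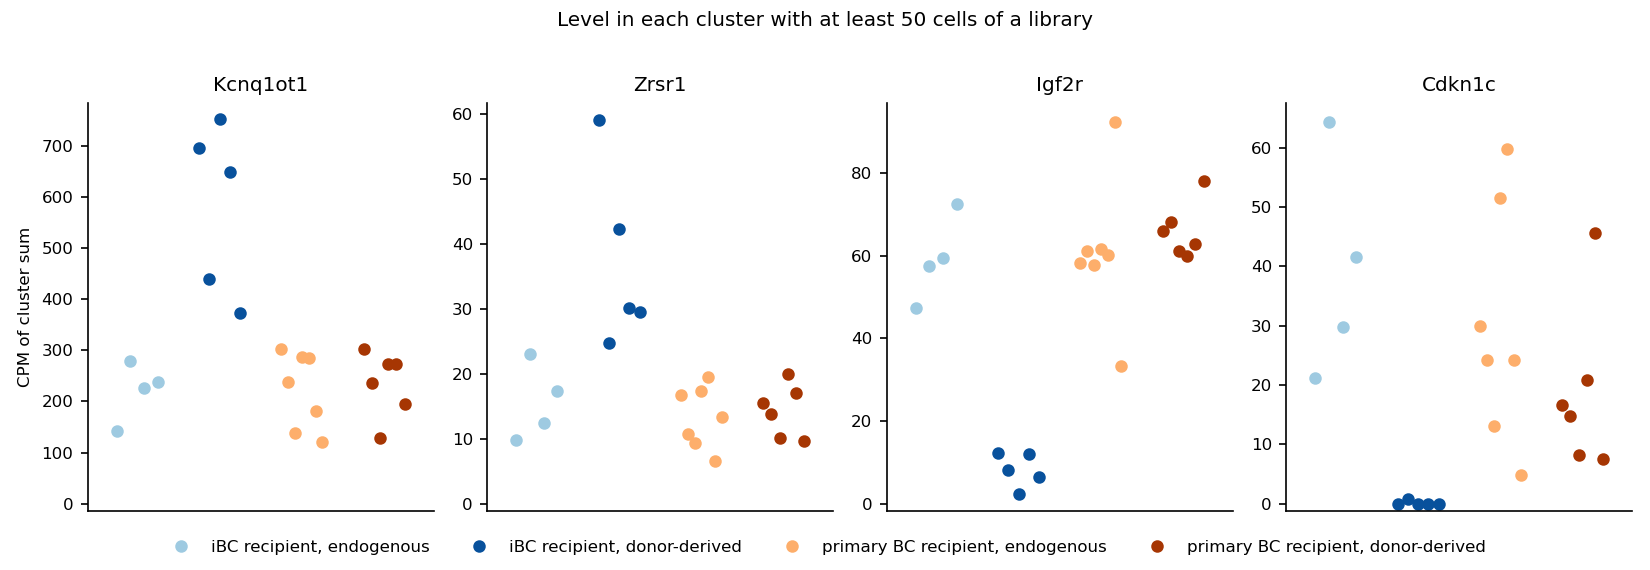
Level in CPM (vertical axis) of 4 members in each cluster that held at least 50 cells of a library; each point is 1 cluster sum, grouped and coloured by library. The 5 iBC-derived points lie above the other 17 for Kcnq1ot1 and Zrsr1 and below them for Igf2r and Cdkn1c.

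In the primary BC recipient, which asked how cells transplanted without a stem cell stage compare with their endogenous neighbours, no paternally expressed member was called in any class. Of all genes, 2.83%, 3.07% and 2.5% were called in basal-, secretory- and ciliated-like cells, 0.908%, 0.982% and 1.27% of them higher and 1.92%, 2.09% and 1.23% lower. Kcnq1ot1 had ratios of 1.01 (0.96 to 1.06), 0.98 (0.88 to 1.09) and 0.88 (0.81 to 0.95) in the 3 classes. Igf2r had ratios of 1.05 (0.95 to 1.16), 0.98 (0.82 to 1.16) and 0.94 (0.78 to 1.14). The intervals of both genes lay apart from those in the iBC recipient in each class. Cdkn1c was the 1 member called, 2.5-fold (2.12 to 2.95) lower in primary-BC-derived than in endogenous basal-like cells. Its ratio was 0.56 (0.35 to 0.85) in secretory-like and 0.82 (0.66 to 1.02) in ciliated-like cells. Basal-like cells of these libraries fell into different clusters, with 683 primary-BC-derived and 85 endogenous ones in cluster 0, 393 and 182 in cluster 1, 98 and 379 in cluster 7 and 63 and 50 in cluster 13. Within these clusters Cdkn1c was 1.80-fold (1.19 to 2.64), 1.76-fold (1.251 to 2.46), 2.47-fold (1.60 to 4.02) and 3.19-fold (1.33 to 8.76) lower, a split chosen after seeing the data. Over whole libraries, at 17.4 against 34.4 CPM, it was 1.98-fold (1.76 to 2.23) lower, just short of a call.

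Endogenous cells of the recipients were compared to see how far the members differ where no donor cell is involved. No member was called in basal-like cells, where 8.7% of genes were called, 3.22% higher in the iBC recipient and 5.48% lower. In secretory-like cells, where the shares were 3.5% and 7.26% (4.91% and 4.5% with TMM scaling), 1 member was called, Peg3, on 21 against 3 UMIs (ratio 5.08, 1.52 to 26.6). In ciliated-like cells, where they were 4.66% and 6.29%, 2 members were called higher in the iBC recipient, Plagl1 and Sgce, the latter on 27 against 7 UMIs (ratio 3.86, 1.64 to 10.5). Kcnq1ot1 was 1.40-fold (1.29 to 1.51) lower in ciliated-like endogenous cells of the iBC recipient. Igf2r had ratios of 0.92, 0.83 and 1.16 in the 3 classes. This comparison shares its iBC-recipient endogenous sums with the first one and its primary-recipient endogenous sums with the second.

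Other imprinted genes, from a textbook list, were mostly too scarce to place. Whether each gene of that list is imprinted in tracheal cells was not tested. Of 22 other paternally expressed genes matched by symbol, 3, 7 and 4 had enough UMIs within the iBC recipient in basal-, secretory- and ciliated-like cells. None was called in basal-like cells, 4 were called higher in secretory-like cells (Peg10, Ndn, Mcts2 and Peg12) and 1 in ciliated-like cells (Mcts2), and none was called lower. Of all genes, 6.64%, 11.3% and 6.19% were called higher and 6.14%, 5.9% and 6.01% lower in the 3 classes. The median log2 ratio of these paternally expressed genes was -0.23, 0.34 and 0.10, beside 0.11, 0.26 and 0.07 over all genes. Peg10, a retrotransposon-derived gene whose start lies 0.1 kb from that of Sgce, had 20 UMIs in iBC-derived and 0 in iBC-recipient endogenous secretory-like cells, at least 8.31-fold higher against the level of 3 counts in the sum, with an exact interval of the ratio from 6.15 upward. Mcts2, a translation factor gene inside H13, stood at 17.7 against 7.28 CPM in secretory-like cells (ratio 2.43, 1.76 to 3.37) and at 33.1 against 14.5 CPM in ciliated-like cells (2.28, 1.67 to 3.13). Peg12 had 35 against 10 UMIs in secretory-like cells (ratio 4.36, 2.11 to 9.87), and Ndn, which encodes necdin, a growth suppressor of neurons, 20 against 11 (2.27, 1.03 to 5.23). With TMM scaling, Mcts2 in secretory-like cells (ratio 1.89, 1.37 to 2.62) and Ndn (1.76, 0.80 to 4.06) were not called, and Jade1 was called lower in basal-like cells (0.49, 0.43 to 0.57). With that scaling 5.88% of all genes were called higher in secretory-like cells and 6.83% lower in basal-like cells.

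Of 28 other maternally expressed genes, 16, 15 and 15 had enough UMIs. Lower calls fell to Grb10 and Ppp1r9a in basal-like, Grb10 in secretory-like and Kcnq1 in ciliated-like cells, and higher calls to Cd81 in secretory-like and to Cd81 and Dcn in ciliated-like cells. Grb10, an adaptor protein that restrains insulin and growth factor signalling, had 2 UMIs in iBC-derived and 36 in iBC-recipient endogenous basal-like cells (ratio 0.048, 0.0056 to 0.19), and 0 against 26 in secretory-like cells, at least 6.96-fold lower against the same level, with an exact interval of the ratio up to 0.19. Grb10 and Ppp1r9a were also called lower in primary-BC-derived basal-like cells, with ratios of 0.33 (0.16 to 0.65) and 0.24 (0.14 to 0.38). The lower calls were thus 2 of 16, 1 of 15 and 1 of 15, beside 6.14%, 5.9% and 6.01% of all genes, and the higher calls 0, 1 and 2, beside 6.64%, 11.3% and 6.19%. The median log2 ratio of this group was 0.03, 0.19 and -0.18 in the iBC recipient, against 0.11, 0.26 and 0.07 over all genes. Gnas, which encodes a G protein subunit, was at 517 against 473 CPM in basal-like cells and was not called. The growth factor gene Igf2 and the noncoding RNAs H19 and Meg3 had at most 2 UMIs in any of the sums of both donor comparisons.

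Of 19 genes whose proteins place, keep or remove DNA methylation or silence chromatin at imprints, 17, 14 and 14 had enough UMIs in the iBC recipient. In basal-, secretory- and ciliated-like cells 1, 1 and 0 of them were called higher, beside 6.64%, 11.3% and 6.19% of all genes, and none lower, beside 6.14%, 5.9% and 6.01%. Tet1, an enzyme that oxidises methylated cytosine, had 34 against 2 UMIs in basal-like cells (ratio 14.7, 3.77 to 126.5), a level of 4.72 CPM. Zfp57 was at 5.74 against 2.55 CPM in secretory-like cells (ratio 2.25, 1.29 to 4.04) and at 11.7 against 12.5 CPM in basal-like cells, and the former ratio was 1.75 (1.001 to 3.14) with TMM scaling, which is no call. Dnmt1, the maintenance methyltransferase, was at 39.98 against 39.3 CPM in basal-like cells (ratio 1.02, 0.86 to 1.21), and Trim28, the corepressor recruited by ZFP57, at 62.3 against 47.3 CPM (1.32, 1.14 to 1.53).

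Genes beside the members gave mixed values. Commd1, the host of Zrsr1 and a regulator of copper handling, was lower in the iBC-derived library without reaching a call, with ratios of 0.58 (0.50 to 0.67), 0.70 (0.56 to 0.86) and 0.60 (0.47 to 0.77) in basal-, secretory- and ciliated-like cells. Casd1, which adds acetyl groups to sialic acids and lies beside Sgce, had ratios of 1.29, 1.47 and 0.88. Osbpl1a, beside Impact, had ratios of 1.60, 1.87 and 1.08, none called. Slc22a2, Slc22a3 and Mas1, which flank Igf2r, and Zim1 and Usp29, which flank Peg3, had 0 or 1 UMI in each sum of the iBC recipient.

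The libraries also differed in marker levels, and not all of these differences set the iBC-derived library apart. The summed level of the 11 secretory markers in basal-like cells was 10940 CPM in the iBC-derived library. There, 10 of the 11 markers had UMIs and Muc5ac was at 0. The iBC-recipient endogenous, primary-recipient endogenous and primary-BC-derived libraries had 27400, 50370 and 43960 CPM. In secretory-like cells the iBC-derived library had 317100 CPM against 440300, 348800 and 337000 CPM in the same order. The 9 immune markers summed to 12.4, 590.0 and 221 CPM in iBC-derived basal-, secretory- and ciliated-like cells. The other libraries had 174 to 242, 6920 to 15510 and 3374 to 4646 CPM. Ptprc, the defining immune marker, was at 0 in the 3 iBC-derived sums. It was also at 0 in all primary-BC-derived sums and in every secretory- and ciliated-like sum. In ciliated-like cells of both libraries of the iBC recipient 8 of the 9 markers were at 0, all but Lyz2. The 4283 CPM of its endogenous ciliated-like cells was thus Lyz2 alone. The 5 cycling markers summed to 136, 44.0 and 10.3 CPM in the iBC-derived sums, against 48.9, 6.06 and 10.3 CPM in the iBC-recipient endogenous ones. Cycling markers stood at 56.9, 48.7 and 137 CPM in the primary-recipient endogenous and 42.6, 2.64 and 64.1 CPM in the primary-BC-derived sums. The part of these markers in the members' ratios, those of the cell cycle regulators Cdkn1c and Plagl1 included, was not tested. The direction of the Kcnq1ot1, Igf2r and Cdkn1c ratios was the same in each of the 3 classes and over whole libraries. These genes were chosen on this contrast and the classes share the same libraries, so that sameness is a description only.

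Each member was finally set beside the 6277 genes with a mean of at least 20 CPM, by Pearson correlation of log2 levels over the 12 sums. These sums come from 4 libraries and share depth and class, so the coefficients are descriptions. They include the iBC-derived sums on which the members were chosen, so coefficients between members follow in part from that choice. Kcnq1ot1 was most like another member, Zrsr1 (r = 0.952), followed by Rnf10 (0.951) and Rnf19a (0.939). Zrsr1 was most like H2-Q4 (0.968), Tmem243 (0.959) and Kcnq1ot1, Plagl1 like Diaph1 (0.957), Tap1 (0.950) and Oxr1 (0.912), and Sgce like Psmb9 (0.956), Mcub (0.946) and B2m (0.934). Igf2r was most like Trim25 (0.968), 2210016F16Rik (0.958) and Otx1 (0.956), and Cdkn1c like Tbx1 (0.942), Plekha5 (0.918) and Trim25 (0.899). Airn was most like Naa10 (0.977), Cebpz (0.969) and Ahnak2 (0.962), Impact like C130026I21Rik (0.885), 2810474O19Rik (0.885) and H2-T23 (0.880), and Peg3 like Sh3bgrl (0.901), Tns2 (0.871) and Ywhag (0.848). Slc22a18 had no close match, the nearest being Vtcn1 (0.716), Trabd (0.707) and Adam10 (0.703). Between members, the coefficient of Igf2r was -0.749 with Kcnq1ot1, -0.807 with Plagl1 and -0.927 with Sgce.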

How the data were processed

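The values the authors deposited for the 4 libraries are whole UMI counts of each gene in each barcode, not normalized. The build GRCm38 and the tools Cell Ranger, STARsolo and Seurat are named in the submitters' processing notes; their versions, and how strand was treated, are not given in the sources used here. The lowest deposited totals were 2910 to 4296 UMIs per barcode in the 4 libraries.

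Barcodes with under 500 genes or over 20% mitochondrial UMIs were removed, and doublets (0.564% to 2.33% per library) were called with Scrublet in scanpy 1.11.5 and removed. Cells were gated in order on the mean log-normalised level (counts per 10000) of fixed markers: immune-like at 1.0, ciliated-like at 0.75, basal-like at 1.0, and secretory-like at 2.0 with a basal score under 0.5. The gates were set with the data at hand, and 13.2% of cells lay within 0.1 of a gate. UMIs were summed per library and class. Ratios are of CPM without a pseudocount, and log2 ratios use a pseudocount of 5 CPM. The libraries fell into different clusters (leidenalg 0.10.2, resolution 1.0, 2000 variable genes, 30 components, 15 neighbours): basal-like cells of the iBC recipient were mainly in cluster 3 when donor-derived and in clusters 5 and 8 when endogenous.

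As each group is 1 library, nothing was tested across samples and p-values are left out. The members, lists and rules were chosen with earlier results of these data known. The report names all 10 members, the listed imprinted and imprint maintenance genes called in the iBC recipient, neighbours, and the 3 genes most like each member; Gnas, Igf2, H19, Meg3, Dnmt1, Trim28 and Osbpl5 of the lists were named after their values were seen. Of 30907 gene IDs, 30766 were found in GENCODE vM21, which gave positions; Peg13 and Rian had no match by symbol. Promoters are from RefSeq (GRCm38.p6). Alternatives were clusters in place of gates, stricter gates, whole libraries, TMM scaling (edgeR 4.0.16, for scaling factors only), no cell filter, thinning, other call rules and a pseudocount of 1 CPM.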

Additional observations from a re-analysis of the deposited data

Results flagged for a closer look

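Sgce in basal-like cells and Kcnq1ot1 in ciliated-like cells were marked because the donor-derived over endogenous ratio lay on opposite sides of 1 in the recipients, with an interval excluding 1 in each. For Sgce the ratio was 12.25 after iBC transplantation and 0.0 after primary BC transplantation, the latter on 0 against 5 UMIs, with an interval up to 0.75; these are fewer than the 20 UMIs required for a call. For Kcnq1ot1 it was 2.988 after iBC and 0.8774 after primary BC transplantation. The difference between the recipients was not tested in either case, since each has 1 library per group.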

How the results depend on the processing

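No paired analysis was possible because each group has 1 library and no result comes from a test; for the same reason no replicate could be left out. Within the iBC recipient the counts of members called in either direction stayed within 1.5 times the reported ones under all 8 alternatives in the 3 classes; taken by direction, TMM scaling was an exception, given below. Of 72 counts under alternatives over all comparisons, 63 stayed so and 9 did not. In the primary BC recipient these were 0 in place of 1 in basal-like cells over whole libraries, and 1 in place of 0 in secretory-like cells at 1.5-fold. Between the endogenous libraries, basal-like cells gave 1 with clusters and 2 over whole libraries in place of 0. Secretory-like cells gave 2 with stricter gates, 2 over whole libraries, 3 at 1.5-fold and 0 with thinned cells in place of 1, and ciliated-like cells gave 1 with thinned cells in place of 2. The cause was not tested. Of 634 log2 ratios of members under alternatives, 553 moved by less than their interval, 81 moved more and 0 changed sign after a call. Within the iBC recipient, Kcnq1ot1, Plagl1, Sgce, Impact, Zrsr1 and Airn were higher and Igf2r and Cdkn1c lower under all 8 settings in each class. The whole-library setting has no classes, so the same sums enter each class, also in the 72 counts above. Slc22a18 in ciliated-like cells was lower in all but 1 of the 8 settings, and Peg3 in secretory-like cells likewise. TMM scaling shifted all log2 ratios of the iBC recipient by -0.12, -0.37 and -0.09 in basal-, secretory- and ciliated-like cells, and in secretory-like cells the paternally expressed members called higher went from 5 to 3, without Plagl1 and Zrsr1, and Peg3 was called lower. Depth limits Peg3, Cdkn1c in iBC-derived cells and Sgce elsewhere, whose sums hold few UMIs.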
